A study of Homo sapiens with 36 samples.

Results

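Cytosolic ribosomal protein genes encode the proteins of the 80S ribosome that translates nuclear mRNA. They were taken as the rows whose symbol is RPL or RPS with a number, with an optional A or X, together with RPSA, RPLP0, RPLP1 and RPLP2. The rule finds 77 of the 36601 gene rows, 46 for the large subunit and 31 for the small subunit, and all 77 passed the filter on low counts. It leaves out FAU, which encodes a ribosomal protein fused to a ubiquitin-like protein, RACK1, and paralogs with longer names such as RPL22L1 and RPL39L.

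The study tagged endogenous proteins of HEK293 cells, a human embryonic kidney line, with HaloTag by introducing a guide library and a donor construct. HyT36 is a hydrophobic ligand of HaloTag meant to make the tagged protein misfold, and DMSO is its vehicle. Bulk poly(A)-selected RNA-seq was made from 2 tagged clones, with 3 libraries each of clone 5 with HyT36, clone 5 with DMSO, clone 4 with HyT36 and clone 4 with DMSO. All 12 libraries are labelled as tagged, each group of libraries stands for 1 clone, the labels do not name the protein tagged in either, and no untagged bulk library is among those analysed. The treatment text shared by all samples gives 25 µM HyT36 for 2 or 12 h, without saying which exposure the bulk libraries had.

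Each ribosome needs 1 copy of nearly every ribosomal protein, so cells make the mRNAs of both subunits in matched amounts and degrade proteins left unassembled. These mRNAs are among the most abundant in growing cells and usually begin with a cytosine followed by a run of pyrimidines, the 5′ terminal oligopyrimidine (TOP) motif. Through that motif mTORC1 and the RNA-binding protein LARP1 set how well they are translated, which a measurement of mRNA level does not show.

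The annotated starts show the motif that the family shares. RefSeq promoter sequences on GRCh38.p14 were at hand for 62 of the 77 genes. A C followed by at least 4 C or T began the transcript in 42 of them (67.7%), against 3.9% of 27243 promoters outside the family. Large-subunit genes had it in 65.8% of 38 and small-subunit genes in 70.8% of 24. Within 5 bases of the annotated start the figures were 80.6% of the family and 20.9% of the others, so several starts without the motif lie beside one. The ETS motif CCGGAAG, searched on both strands of the 300 bases from 250 before to 50 after the start, was present in 33.9% of the family's promoters and 10.6% of the others. The same search found GGGCGG, an SP1 motif, in 54.8% and 44.6%. A match is a description of these letters and was not tested as a site.

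The 4 X-linked genes and 4 of the genes that were lower in clone 5 are shown because the results below turn on them. Each line gives 15 bases before and 15 bases from the annotated start, 5′ to 3′ on the gene's strand, with the pyrimidine run at the start in capitals. The windows lie at chrX:72277234-72277263 (RPS4X, minus strand), chrX:154398050-154398079 (RPL10, plus), chrX:101390996-101391025 (RPL36A, plus) and chrX:119791616-119791645 (RPL39, minus). The others lie at chr9:133348203-133348232 (RPL7A, plus), chr5:82278340-82278369 (RPS23, minus), chr11:8682777-8682806 (RPL27A, plus) and chr12:120201097-120201126 (RPLP0, minus).
RPS4X: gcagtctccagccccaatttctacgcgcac
RPL10: tttttccactctcagaaatatacgtctgtc
RPL36A: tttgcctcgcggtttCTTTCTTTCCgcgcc
RPL39: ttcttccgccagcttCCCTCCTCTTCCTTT
RPL7A: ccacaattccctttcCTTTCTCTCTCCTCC
RPS23: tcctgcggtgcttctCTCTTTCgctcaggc
RPL27A: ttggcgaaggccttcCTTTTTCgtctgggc
RPLP0: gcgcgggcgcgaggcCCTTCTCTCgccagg
The annotated starts of RPS4X and RPL10 are an A and hold no pyrimidine run, while the other 6 hold one. Among genes lower in clone 5 that are not shown, RPS27 holds a run while RPS27A and RPS26 hold none.

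Gene counts per library were 22853946 to 28635511, of which the 77 genes took 7.79 to 8.34%. The libraries of a group differed beyond sampling noise, with a chi-square per degree of freedom of 1.95 to 8.71. Replicate 1 of clone 4 with DMSO stood furthest from its group. Nothing in the labels says that replicates came from separate cultures, so p-values measure the spread between these libraries. Of 5 HEK293 markers, 3 were under 1 CPM (reads of a gene scaled to library size) in every library. PAX2 measured 12.2 to 14.8 CPM and INA 2.04 to 6.29 CPM across the libraries. A set of 11 epithelial markers summed to 52.4 to 104 CPM in 6 libraries (all 3 of clone 5 with DMSO, replicates 2 and 3 of clone 4 with HyT36, replicate 1 of clone 4 with DMSO) and to 3.79 to 6.24 CPM in the other 6. KRT19, at 32.2 to 69.9 CPM, made up most of the sum in the high libraries. Of the 11 markers, 1 to 4 were under 1 CPM in each high library and 10 in each low one. Not every marker followed the split: CDH1 was under 1 CPM in every library. CLDN7 measured 3.72 to 4.58 CPM in clone 5 with DMSO and 2.61 to 3.81 CPM with HyT36. In clone 5 the split of the sum coincides with the treatment, so the 2 cannot be told apart there. In bulk RNA, fewer cells with a transcript and less of it per cell cannot be told apart.

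RPL4, which lines the exit tunnel, RPL13A and RPLP0, the base of the ribosomal stalk, took most reads, with mean levels of 4656, 3729 and 3071 CPM. RPS10, RPL30 and RPL23A took fewest, with 1.78, 189 and 202 CPM. These are reads per gene and not levels per length, so they do not rank the mRNAs. RPS10 had 21 to 64 reads per library, and the table also lists the readthrough gene RPS10-NUDT3, at 0 reads in every library. The 2 genes overlap and how shared reads were counted is not known, so the RPS10 values are uncertain. Replicates of the other genes were close: the median coefficient of variation within groups was 3.45% for the 77 genes, against 3.24% for 2119 other genes over 100 CPM. It was highest for RPS10 (17.1%), RPL30 (9.38%) and RPL23A (7.51%).

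With HyT36 the ribosomal protein mRNAs of clone 4 lay close to their DMSO level. RPS4X, a core protein of the small subunit, was the single gene called higher and none was called lower, with a cut-off of 0.05 on the Benjamini-Hochberg adjusted p of edgeR's quasi-likelihood test over 14892 genes. That is 1 of 77 called, where 5.57% of all genes tested were called (2.21% higher, 3.36% lower). RPS4X measured 1140, 1100 and 1100 CPM with HyT36, against 999, 1010 and 1070 CPM with DMSO. The groups did not overlap, and RPS4X rose by 0.11 ± 0.035 on the log2 scale (SE, edgeR adjusted p = 0.0447). The call was kept in 11 of 24 other fits, with an edgeR, DESeq2 or limma-voom adjusted p of 0.00474 to 0.361 in them. It was lost without replicate 1 or 2 of clone 4 with DMSO, any library of clone 4 with HyT36, any library of clone 5 with DMSO, or replicate 2 of clone 5 with HyT36.

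The clone 4 differences centred near 0. The median log2 difference was 0.01 for the 77 genes and 0.00 for all genes tested, and 45 of the 77 were above 0, where 50.8% of all genes were. The median was 0.01 for the large subunit, where edgeR called none, 8 genes were under an unadjusted p of 0.05 and DESeq2 called 2. It was 0.03 for the small subunit. In all, 11 of the 77 were under an unadjusted p of 0.05, where 18.5% of all genes were. The groups did not overlap for 10 higher and 8 lower genes, where 11.7% and 11.8% of all genes did so. The 95% interval of 74 of the 77 lay within ±0.2 on the log2 scale.

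The 3 genes outside those limits were those with fewest reads. RPL23A, which sits at the tunnel exit where nascent chains are met, measured 188, 223 and 203 CPM with HyT36 and 257, 236 and 246 CPM with DMSO. Its log2 difference was -0.27 ± 0.085 (SE, edgeR adjusted p = 0.128). RPL30 measured 154, 185 and 174 CPM with HyT36 and 190, 198 and 221 CPM with DMSO, a log2 difference of -0.24 ± 0.11 (SE, edgeR adjusted p = 0.284). The groups of both genes stood apart by a small gap, and neither passed the test. RPS10 measured 1.66, 1.74 and 1.35 CPM with HyT36 and 2.29, 1.84 and 2.37 CPM with DMSO, a log2 difference of -0.45 ± 0.23 (SE, edgeR adjusted p = 0.293).

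The clone 4 count differed between fits on fewer libraries. With only the 3 clone 4 libraries high in the epithelial marker KRT19 (2 with HyT36, 1 with DMSO), 17 of the 77 genes were called, 16 of them higher. Over all genes that fit called 569 higher and 608 lower. With only the 3 low ones (1 with HyT36, 2 with DMSO), 2 were called, both lower, and over all genes 97 were called higher and 190 lower. Each of these fits has an arm of 1 library, whose spread is taken from the other groups, and in the first it is replicate 1 of clone 4 with DMSO. Without replicate 1 of clone 4 with DMSO the count was 0, and without replicate 2 it was 4. That replicate 1 had the lowest summed level of the 77 genes in clone 4, 79162 CPM, against 84267 to 85051 CPM in the other 5 clone 4 libraries. The part of the markers in these counts was not tested.

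In clone 5 with HyT36, 1 of the 77 genes was called against DMSO. RPS10, a protein of the small-subunit head, was called lower, and none was called higher, where 8.19% of all genes were called (3.35% higher, 4.83% lower). It measured 0.879, 1.48 and 1.4 CPM with HyT36 and 1.83, 2.21 and 2.33 CPM with DMSO, and it fell by 0.77 ± 0.24 on the log2 scale (SE, edgeR adjusted p = 0.0392). These are 21 to 34 reads per library with HyT36 and 44 to 64 with DMSO. The call was lost without replicate 2 or 3 of clone 5 with DMSO or replicate 1 or 3 of clone 5 with HyT36 (edgeR adjusted p of 0.0513 to 0.233), and DESeq2 gave the gene no adjusted p. It was also lost with no filter on low counts, with a block for the replicate number and with a term for the epithelial marker KRT19. Over all 21 other fits that gave an adjusted p the call was kept in 14 (edgeR or limma-voom adjusted p of 0.0258 to 0.233).

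The large subunit had no call in clone 5 by edgeR or DESeq2, and none of its 46 genes was under an unadjusted p of 0.05. The small subunit had 2 of 31, where 20% of all genes were. The median log2 difference was 0.02 for the large subunit and 0.03 for the small subunit, against 0.00 for all genes tested. Of the 77 differences 64 were above 0, where 48.8% of all genes were, and the 95% interval of 75 of them lay within ±0.2. The other genes over 100 CPM had a median of 0.03, so abundant genes at large sat slightly above 0 with this scaling.

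The sum over each subunit moved as little. Large-subunit genes summed to 53543 ± 236 CPM with HyT36 and 52320 ± 2079 CPM with DMSO in clone 4 (SD, n = 3 each). They summed to 50596 ± 1280 CPM with HyT36 and 49489 ± 1134 CPM with DMSO in clone 5 (SD, n = 3 each). The groups overlapped in both clones. Small-subunit sums were 2.43% higher with HyT36 in clone 4 and 2.32% higher in clone 5, again with overlap, and without TMM scaling the same differences were 0.65% and 0.80%.

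For none of the 77 genes did the difference of the HyT36 response between clones pass edgeR's test at an adjusted p under 0.05, where 0.302% of all genes passed. DESeq2 and limma-voom called none either, and 3 genes were under an unadjusted p of 0.05, where 8% of all genes were. RPL39, a short protein of the exit tunnel, had a difference of responses of 0.16 ± 0.053 (SE, edgeR adjusted p = 0.307). RPL36 had 0.13 ± 0.053 (SE, edgeR adjusted p = 0.476) and RPL36A, a protein near the tRNA exit site, 0.11 ± 0.054 (SE, edgeR adjusted p = 0.619). The 77 differences of response had a median of 0.01 and 45 were above 0, where 47.5% of all genes were, and with no filter on low counts edgeR called 1 large-subunit gene higher.

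**Figure D1:**
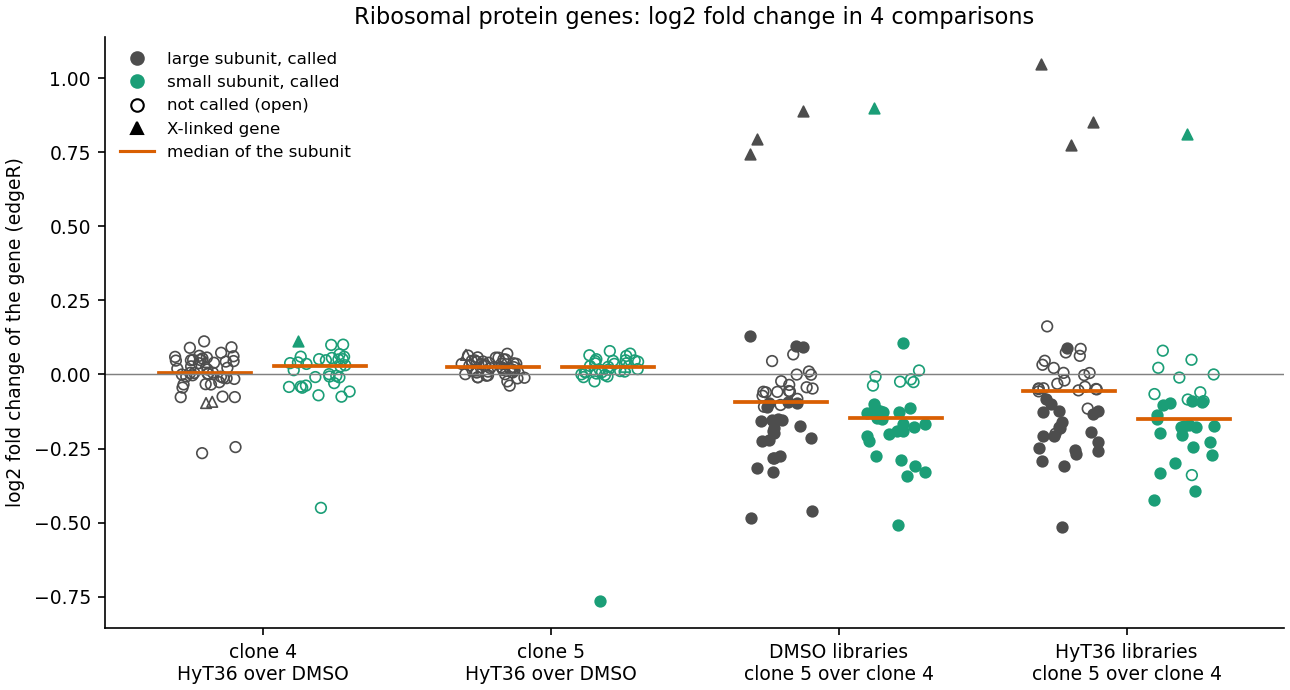
Log2 fold change of each of the 77 ribosomal protein genes (y axis, edgeR) in 4 comparisons (x axis), large subunit in grey and small subunit in green, filled where called at an adjusted p under 0.05. The 2 responses to HyT36 lie close to 0, with RPS10 lowest in both (-0.77 in clone 5 and -0.45 in clone 4), while between clones the 4 X-linked genes (triangles) lie between 0.74 and 1.05 and most others lie below 0.

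The clones differed far more than the treatments. With DMSO, 53 of the 77 genes were called between clone 5 and clone 4, 8 higher and 45 lower in clone 5, where 55.5% of all genes tested were called (27.3% higher, 28.2% lower). The count of lower genes, 58.4% of the family, stands above that share, and the count of higher genes, 10.4%, stands below it. With HyT36, 45 genes were called, 5 higher and 40 lower, where 56% of all genes were called (27% higher, 28.9% lower). The 2 clone comparisons use different libraries of the same 2 clones, and their agreement over all genes is not given here. In both of them 38 genes were called lower and 4 were called higher, and 69 of the 77 had the same sign. The 38 are 84.4% of the genes lower with DMSO and 95% of those lower with HyT36.

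The 4 genes higher in both are the 4 X-linked members. RPS4X, whose Y-linked homolog encodes an interchangeable protein, measured 1970, 1870 and 1900 CPM in clone 5 with DMSO, against 999, 1010 and 1070 CPM in clone 4 with DMSO. RPL10, a large-subunit protein that joins late in assembly near the peptidyl-transferase centre, measured 1070, 1020 and 997 CPM in clone 5, against 555, 605 and 619 CPM in clone 4. Every clone 5 library lay above every clone 4 library for both genes, and RPS4X was 1.87-fold and RPL10 1.74-fold higher in clone 5. Their log2 differences were 0.90 ± 0.035 and 0.80 ± 0.038 (SE), with edgeR adjusted p of 5.67e-24 and 2.7e-21.

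RPL39 measured 532, 509 and 492 CPM in clone 5 with DMSO, against 267, 274 and 286 CPM in clone 4 with DMSO. RPL36A measured 722, 670 and 638 CPM in clone 5, against 393, 409 and 411 CPM in clone 4. Again no libraries overlapped, and RPL39 was 1.85-fold and RPL36A 1.67-fold higher in clone 5. The log2 differences were 0.89 ± 0.038 and 0.74 ± 0.038 (SE), with edgeR adjusted p of 8.51e-23 and 4.34e-20.

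With HyT36 the 4 genes were again higher in clone 5, with no overlap. RPS4X measured 1910, 2000 and 1940 CPM in clone 5 and 1140, 1100 and 1100 CPM in clone 4, a log2 difference of 0.81 ± 0.035 (SE, edgeR adjusted p = 1.62e-22). RPL39 measured 547, 521 and 537 CPM in clone 5 and 258, 252 and 265 CPM in clone 4, a log2 difference of 1.05 ± 0.038 (SE, edgeR adjusted p = 3.38e-25). RPL10 was 1.71-fold and RPL36A 1.81-fold higher in clone 5. All 4 stayed called in each of 23 other fits of both comparisons. Together they supplied 5.31 ± 0.052% of the family's CPM in clone 5 with DMSO, against 2.78 ± 0.065% in clone 4 with DMSO (SD, n = 3 each).

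**Figure D2:**
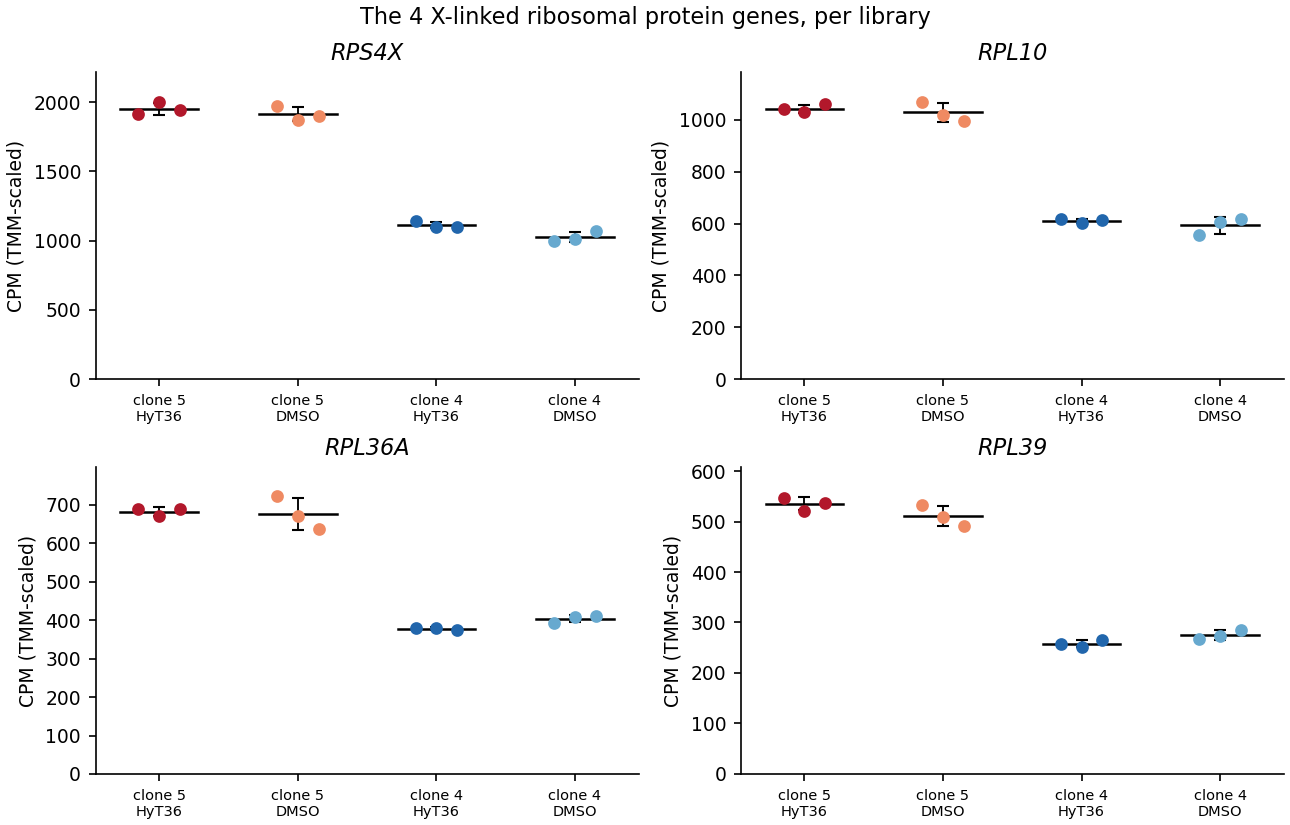
Level in CPM (y axis, TMM-scaled, from 0) of RPS4X, RPL10, RPL36A and RPL39 in every library, by clone and treatment (x axis). Points are libraries, bars the mean and SD of 3; the clone 5 libraries of RPS4X sit between 1870 and 2000 CPM, all above the clone 4 libraries at 999 to 1140 CPM, and the 2 treatments lie close together within each clone.

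The rest of the X chromosome differed the same way. Of 490 X-linked genes outside the family, 415 were called higher and 30 lower in clone 5 with DMSO, with a median log2 difference of 0.91. The median was above 0 in each 20-Mb stretch of the chromosome, from 0.78 to 1.00. Among the 90 X-linked genes over 100 CPM, 88 were called higher and the median was 0.84, the same as the median of the 4 ribosomal protein genes. The 20 tested genes nearest to RPL10 had a median of 0.83, and all 20 were called higher. For RPS4X the nearest 20 had a median of 0.68, for RPL36A 1.21 and for RPL39 1.05. With DMSO RPS4X lay above the median of its neighbours and RPL36A and RPL39 below it. With HyT36 RPS4X (0.81, neighbours 0.85) and RPL36A (0.85, neighbours 1.03) lay below and RPL39 (1.05, neighbours 1.02) above. These differences were not tested.

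Most of the 73 autosomal genes were lower in clone 5. With DMSO, 45 were called lower and 4 higher, and the median log2 difference was -0.13. For the 13366 autosomal genes outside the family the counts were 4053 lower and 3365 higher, and the median was -0.02. Abundant genes leaned the same way: 2119 genes over 100 CPM outside the family had 947 lower, 417 higher and a median of -0.07.

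Among large-subunit genes RPL7A, which carries snoRNA genes in its introns, was furthest down. RPL7A measured 1280, 1310 and 1340 CPM in clone 5 with DMSO, against 1820, 1880 and 1810 CPM in clone 4 with DMSO, and fell by 0.49 ± 0.034 on the log2 scale (SE, edgeR adjusted p = 9.66e-16). RPL23A measured 181, 188 and 168 CPM in clone 5, against 257, 236 and 246 CPM in clone 4, and fell by 0.46 ± 0.085 (SE, edgeR adjusted p = 0.00128). Neither overlapped. RPL27A measured 934, 883 and 881 CPM in clone 5, against 1120, 1130 and 1150 CPM in clone 4, and fell by 0.33 ± 0.034 (SE, edgeR adjusted p = 1.03e-10).

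The stalk proteins are the part of the large subunit that recruits translation factors. RPLP0 measured 2750, 2640 and 2730 CPM in clone 5 with DMSO, against 3090, 3410 and 3330 CPM in clone 4 with DMSO. It fell by 0.28 ± 0.035 on the log2 scale (SE, edgeR adjusted p = 1.23e-08), and RPLP1 by 0.32 ± 0.034 (SE, edgeR adjusted p = 2.62e-10). Its partner RPLP2 did not pass the test, at -0.06 ± 0.035 (SE, edgeR adjusted p = 0.158), with overlapping groups. RPLP1 and RPLP2 were named for their place in the stalk after their values were seen.

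Among small-subunit genes RPS23, which reaches into the decoding centre, was furthest down. RPS23 measured 185, 178 and 169 CPM in clone 5 with DMSO, against 241, 256 and 260 CPM in clone 4 with DMSO, and fell by 0.51 ± 0.041 on the log2 scale (SE, edgeR adjusted p = 5.33e-14). RPS2, which lines the mRNA entry channel, measured 2610, 2660 and 2680 CPM in clone 5, against 3310, 3430 and 3250 CPM in clone 4, and fell by 0.33 ± 0.034 (SE, edgeR adjusted p = 7.34e-11). All clone 5 libraries lay below all clone 4 libraries for both. RPS27, a zinc-binding protein, measured 336, 323 and 298 CPM in clone 5, against 399, 398 and 415 CPM in clone 4, and fell by 0.34 ± 0.040 (SE, edgeR adjusted p = 1.4e-09).

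**Figure D3:**
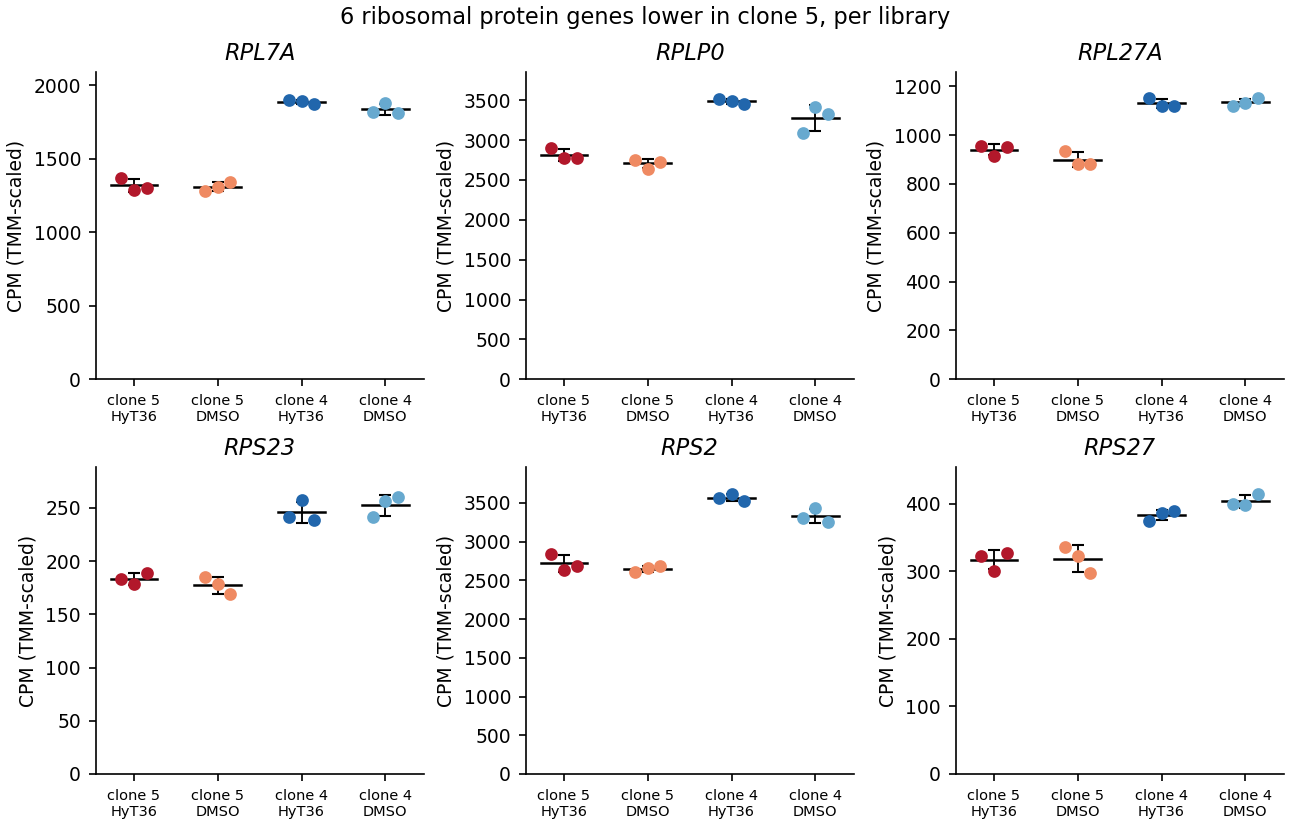
Level in CPM (y axis, TMM-scaled, from 0) of RPL7A, RPLP0, RPL27A, RPS23, RPS2 and RPS27 in every library, by clone and treatment (x axis). Points are libraries, bars the mean and SD of 3; RPL7A sits between 1280 and 1370 CPM in the 6 clone 5 libraries and between 1810 and 1900 CPM in the 6 clone 4 libraries.

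The 45 lower genes reached from -0.51 for RPS23 to -0.09 for RPL4, and 35 of the 77 had every clone 5 library below every clone 4 library, where 29.9% of all genes had. The reverse held for 7 genes, where it held for 29.8% of all genes, and 59.8% of all genes had no overlap either way. Under an unadjusted p of 0.05 were 55 genes, where 60% of all genes were, and 12 were above 0, where 50.2% of all genes were. RPS6, the substrate of S6 kinase, fell by 0.15 ± 0.036 on the log2 scale (SE, edgeR adjusted p = 0.000507). RPS19 and RPL11, both mutated in Diamond-Blackfan anaemia, fell by 0.22 ± 0.037 and 0.16 ± 0.036 (SE), with edgeR adjusted p of 2.51e-06 and 0.000328. RPL5, which binds 5S rRNA together with RPL11, was not called, at -0.04 ± 0.036 (SE, edgeR adjusted p = 0.417). These 4 genes were chosen for their roles after the values were seen.

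Autosomal genes called higher in clone 5 with DMSO were few and their differences small. RPL3, which sits near the peptidyl-transferase centre, measured 3080, 2940 and 2960 CPM in clone 5, against 2530, 2910 and 2770 CPM in clone 4, and rose by 0.13 ± 0.039 on the log2 scale (SE, edgeR adjusted p = 0.00508). RPS15A measured 759, 702 and 709 CPM in clone 5, against 657, 651 and 708 CPM in clone 4, and rose by 0.11 ± 0.037 with a slight overlap (SE, edgeR adjusted p = 0.0135). RPL10A and RPL13A completed the group, each at 0.09 (edgeR adjusted p of 0.0217 and 0.0283). With HyT36 neither RPL3 (0.09 ± 0.039, SE, edgeR adjusted p = 0.0557) nor RPS15A (0.05 ± 0.037, SE, edgeR adjusted p = 0.256) was called.

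With HyT36, 45 of the 77 genes had every clone 5 library below every clone 4 library and 8 had the reverse, where 31.7% and 30.5% of all genes did. Under an unadjusted p of 0.05 were 51 genes, where 60.1% of all genes were, and 18 were above 0, where 49.6% of all genes were. RPL7A measured 1370, 1290 and 1300 CPM in clone 5, against 1900, 1890 and 1870 CPM in clone 4, and fell by 0.52 ± 0.034 on the log2 scale (SE, edgeR adjusted p = 1.45e-16). RPS23 fell by 0.42 ± 0.041 (SE, edgeR adjusted p = 9.63e-12) and RPS2 by 0.39 ± 0.034 (SE, edgeR adjusted p = 5.86e-13). RPS12 measured 669, 659 and 652 CPM in clone 5, against 839, 820 and 833 CPM in clone 4, and fell by 0.33 ± 0.039 (SE, edgeR adjusted p = 1.54e-09). RPLP0 fell by 0.31 ± 0.035 (SE, edgeR adjusted p = 8.21e-10), and RPS27A, which is made as a fusion with ubiquitin, by 0.30 ± 0.038 (SE, edgeR adjusted p = 1.35e-08). RPL23A was not called with HyT36, at -0.20 ± 0.086 (SE, edgeR adjusted p = 0.0759). RPL36 was the autosomal gene called higher, at 0.09 ± 0.038 (SE, edgeR adjusted p = 0.0399), with overlapping groups.

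**Figure D4:**
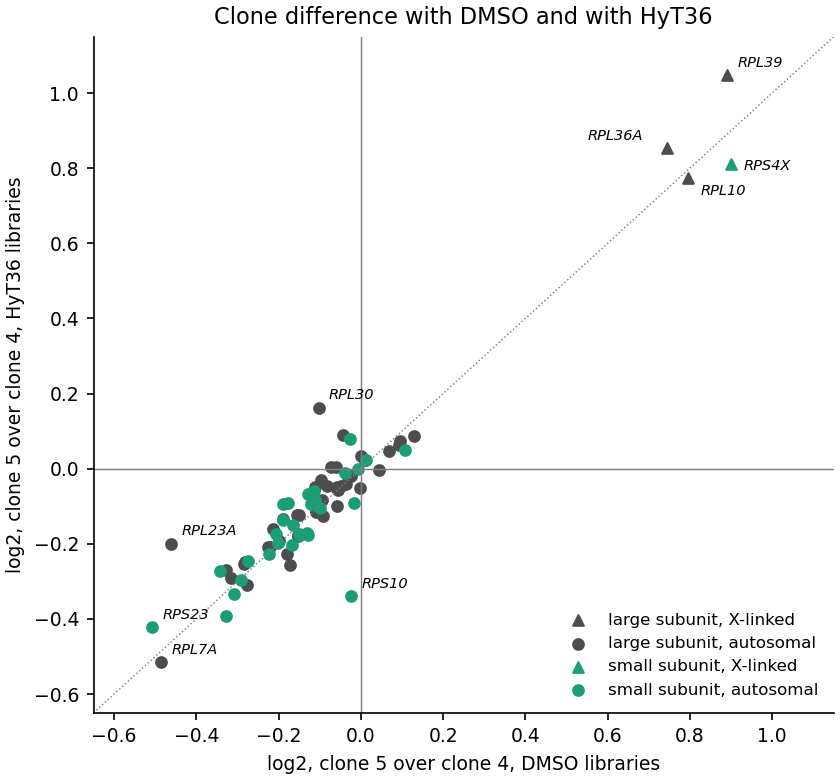
Log2 difference of clone 5 over clone 4 for each of the 77 genes, with DMSO on the x axis and with HyT36 on the y axis; triangles are X-linked genes and the dotted line marks equal values. The libraries of the 2 axes are different but come from the same 2 clones. On both axes 69 genes have the same sign, and RPS10, RPL30 and RPL23A, the genes with fewest reads, lie furthest from the line.

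The epithelial marker split also runs through the clone comparisons. Clone 5 with DMSO has 3 high libraries and clone 4 with DMSO 1 high and 2 low. With only the high libraries, which set 3 of clone 5 against 1 of clone 4, 34 of the 77 genes were called between clones with DMSO, 10 higher and 24 lower. Over all genes that fit called 3551 higher and 3762 lower. With only the low libraries, again 3 of clone 5 against 1 of clone 4, 38 were called with HyT36, 7 higher and 31 lower, and over all genes 3303 higher and 3489 lower. These fits take the spread of the lone clone 4 library from the other groups, and the part of the marker split in the clone difference was not tested.

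A larger share of small-subunit than of large-subunit genes was called lower. Over all genes tested, 28.2% were lower and 27.3% higher with DMSO, and 28.9% and 27% with HyT36. With DMSO, 23 of 31 small-subunit genes were lower and 2 higher, with a median log2 difference of -0.15. Of 46 large-subunit genes, 22 were lower and 6 higher, with a median of -0.09. With HyT36 the small subunit had 20 lower, 1 higher and a median of -0.15, and the large subunit had 20 lower, 4 higher and a median of -0.06. Without the X-linked genes the medians with DMSO were -0.15 for the small subunit (30 genes) and -0.10 for the large subunit (43 genes). The difference between the subunits was not tested.

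The sums weight each gene by its reads. Small-subunit genes summed to 28361 ± 832 CPM in clone 5 with DMSO and 30501 ± 1117 CPM in clone 4 with DMSO (SD, n = 3 each), a difference of -7.02%. Large-subunit genes summed to 49489 ± 1134 CPM in clone 5 and 52320 ± 2079 CPM in clone 4 (SD, n = 3 each), a difference of -5.41%. Both overlapped between clones with DMSO, through replicate 1 of clone 4, and neither did with HyT36. The autosomal genes alone did not overlap with DMSO. Those of the small subunit summed to 26446 ± 785 CPM in clone 5 and 29474 ± 1095 CPM in clone 4 (SD, n = 3 each), a difference of -10.3%. Those of the large subunit summed to 47273 ± 1039 CPM in clone 5 and 51048 ± 2031 CPM in clone 4 (SD, n = 3 each), a difference of -7.4%. Without TMM scaling the differences over all genes of each subunit were -4.18% for the small and -2.52% for the large. The large-subunit sums then overlapped with HyT36 as well, reaching 52020 CPM in clone 5 and starting at 51969 CPM in clone 4. Their autosomal part then overlapped with DMSO, reaching 49577 CPM in clone 5 and starting at 49221 CPM in clone 4. The matching small-subunit sums stayed apart.

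The ratio of the small-subunit to the large-subunit sum does not depend on the scaling. It was 0.577, 0.573 and 0.569 in clone 5 with DMSO, against 0.585, 0.579 and 0.585 in clone 4 with DMSO, a difference of -1.71% with no overlap. With HyT36 it was 0.568, 0.574 and 0.579 in clone 5, against 0.584, 0.583 and 0.583 in clone 4, a difference of -1.7%. Leaving out RPS2 and RPL4, the genes with most reads in each subunit, brought the differences to -0.06% and 0.27%, with overlap. Leaving out the 4 X-linked genes instead gave 0.559 in clone 5 and 0.577 in clone 4 with DMSO, a difference of -3.13%, and 0.560 in clone 5 and 0.576 in clone 4 with HyT36, a difference of -2.8%, both with no overlap. The size of the difference thus depended on which genes entered the sums. With HyT36 the ratio differed from DMSO by 0.08% in clone 4 and 0.10% in clone 5, with overlap in both.

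**Figure D5:**
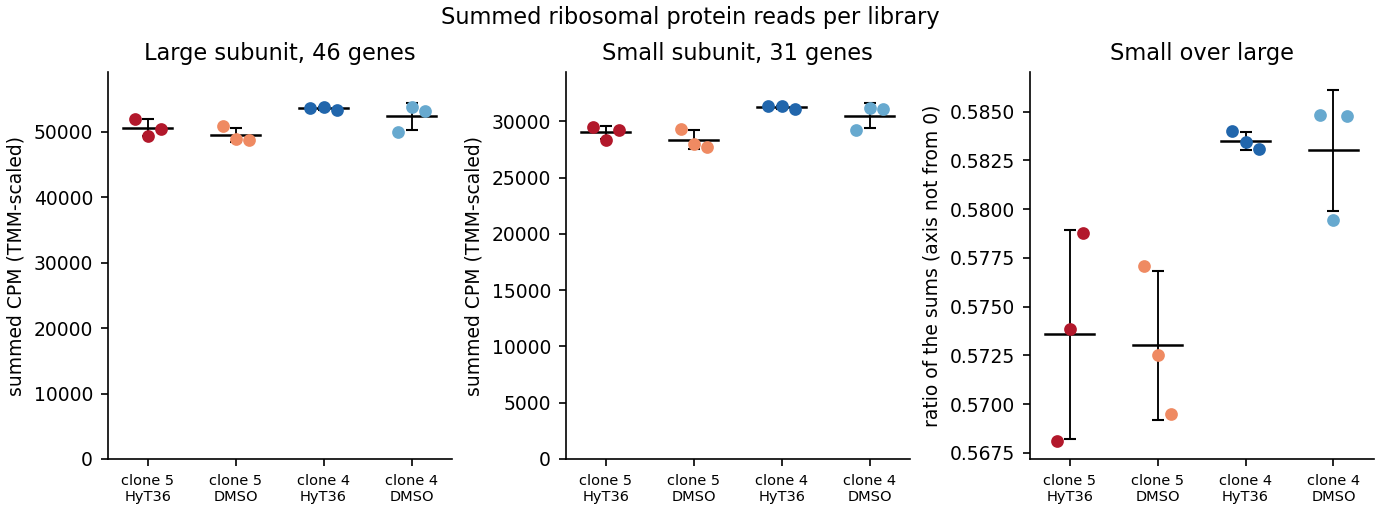
Summed CPM of the 46 large-subunit and 31 small-subunit genes (y axes of the first panels, TMM-scaled, from 0) and the ratio of small to large (last panel, axis not from 0) in every library, by clone and treatment. Points are libraries, bars the mean and SD of 3; the ratio is 0.568 to 0.579 in the 6 clone 5 libraries and 0.579 to 0.585 in the 6 clone 4 libraries.

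Position along the chromosomes was compared with the clone difference. Each gene was set beside the median log2 difference of the 20 tested genes nearest to it outside the family. Across the 77 genes Pearson's r was 0.78, which the 4 X-linked genes carry. Across the 73 autosomal genes r was 0.30 and Spearman's rho 0.29, with neighbours and members read from the same libraries. In the DMSO libraries RPL7A, at -0.49, had neighbours with a median of -0.05. RPS23, at -0.51, had neighbours with a median of 0.04. RPL23A, at -0.46, had neighbours at -0.19, with 12 of the 20 called lower. RPS2, at -0.33, had neighbours at -0.16, with 11 of the 20 called lower. With HyT36 RPL7A was at -0.52 (neighbours -0.05) and RPS23 at -0.42 (neighbours -0.09). RPL23A was then at -0.20 (neighbours -0.14) and RPS2 at -0.39 (neighbours -0.15). The median of the genes around RPL7A and RPS23 thus lay nearer 0 than their own values, a difference that was not tested.

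The ribosomal protein genes outside the symbol rule gave mixed values. With DMSO, RACK1, a scaffold protein of the small subunit, fell in clone 5 by 0.19 ± 0.035 on the log2 scale (SE, edgeR adjusted p = 1.75e-05), while FAU was at -0.10 ± 0.10 (SE, edgeR adjusted p = 0.426). Of 8 paralogs 6 passed the filter, and 3 were called higher and none lower, where 27.3% and 28.2% of all genes were. RPL39L, an autosomal paralog of RPL39 known from testis, measured 56.3, 52.6 and 55.8 CPM in clone 5, against 24.5, 32.2 and 31.7 CPM in clone 4, and rose by 0.90 ± 0.078 (SE, edgeR adjusted p = 2.46e-09). RPL22L1, the paralog of RPL22, rose by 0.54 ± 0.050 (SE, edgeR adjusted p = 1.07e-11) and RPL26L1 by 0.20 ± 0.049 (SE, edgeR adjusted p = 0.000722). With HyT36 none of the 6 was called in clone 4, where 2 were under an unadjusted p of 0.05. RPS27L, a p53-responsive paralog, fell in clone 5 by 0.23 ± 0.049 (SE, edgeR adjusted p = 0.00159). Paralogs share sequence with their parent genes, so reads could be split between them.

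Other mRNAs with a TOP motif, mostly translation factors, were read alongside. Of 20, none was called lower with HyT36, and 2 were called higher in clone 4 and 3 in clone 5, where 2.21% and 3.35% of all genes were. EIF4B, which stimulates the cap-binding helicase, measured 709, 710 and 694 CPM with HyT36 and 605, 647 and 649 CPM with DMSO in clone 4. It rose by 0.15 ± 0.035 on the log2 scale in clone 4 (SE, edgeR adjusted p = 0.00489) and by 0.20 ± 0.036 in clone 5 (SE, edgeR adjusted p = 0.000187). EIF3E rose by 0.13 in clone 4, and the elongation factors EEF2 and EEF1A1 by 0.12 and 0.11 in clone 5, with edgeR adjusted p of 0.0423, 0.0392 and 0.0406. Between clones with DMSO, 9 of the 20 were lower in clone 5 and 1 higher, where 28.2% and 27.3% of all genes were, with EEF1B2 furthest at -0.59 ± 0.041 (SE, edgeR adjusted p = 1.09e-15).

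Of 13 noncoding TOP transcripts that host snoRNAs, 3 were lower with HyT36 in clone 4, where 3.36% of all genes were, and 4 in clone 5, where 4.83% were, and none was called higher. SNHG12 fell by 0.34 ± 0.085 on the log2 scale in clone 4 (SE, edgeR adjusted p = 0.0104) and by 0.41 ± 0.093 in clone 5 (SE, edgeR adjusted p = 0.00316), and SNHG15 and SNHG7 fell in both. Between clones with DMSO, 9 of 13 were lower in clone 5, where 28.2% of all genes were. SNHG7 measured 66.1, 69 and 61.1 CPM in clone 5, against 106, 123 and 119 CPM in clone 4, and fell by 0.82 ± 0.051 (SE, edgeR adjusted p = 2.99e-15).

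Ribosome biogenesis factors act in the nucleolus to make rRNA and build the subunits. Of 41, 1 was higher and 3 were lower with HyT36 in clone 4, and 1 was higher and 12 were lower in clone 5. Over all genes, 2.21% were higher and 3.36% lower in clone 4, and 3.35% higher and 4.83% lower in clone 5. RRN3, which brings RNA polymerase I to its promoter, measured 72.5, 70.5 and 68.8 CPM with HyT36 and 84.6, 83.7 and 83.5 CPM with DMSO in clone 4. It fell by 0.25 ± 0.046 on the log2 scale there (SE, edgeR adjusted p = 0.000305) and by 0.28 ± 0.047 in clone 5 (SE, edgeR adjusted p = 6.32e-05). RRS1, which brings the 5S ribonucleoprotein into the large subunit, fell by 0.22 ± 0.042 in clone 4 (SE, edgeR adjusted p = 0.000574) and by 0.31 ± 0.043 in clone 5 (SE, edgeR adjusted p = 1.83e-06). UTP15 was the other factor lower in both. BOP1 rose in clone 4 by 0.15 ± 0.040 (SE, edgeR adjusted p = 0.0203) and HEATR1 in clone 5 by 0.19 ± 0.044 (SE, edgeR adjusted p = 0.00395).

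Chaperones dedicated to single ribosomal proteins did not pass the test with HyT36 in either clone, at 0 of 7 called by edgeR with 1 under an unadjusted p of 0.05 in each. Over all genes 5.57% were called in clone 4 and 8.19% in clone 5, and 18.5% and 20% were under that unadjusted p. TSR2, the X-linked chaperone of RPS26, measured 157, 155 and 148 CPM in clone 5 with DMSO, against 66.8, 76.6 and 71.8 CPM in clone 4 with DMSO, and rose by 1.10 ± 0.045 on the log2 scale (SE, edgeR adjusted p = 2.99e-23). Its client RPS26, named after its value was seen, fell by 0.27 ± 0.036 (SE, edgeR adjusted p = 1.73e-08). Of 14 genes of the mTORC1 and TOP control list, 2 rose and 1 fell with HyT36 in clone 4, and 3 rose and 2 fell in clone 5, where over all genes 2.21% rose and 3.36% fell in clone 4 and 3.35% rose and 4.83% fell in clone 5. DDIT4, an inhibitor of mTORC1, measured 55, 59.2 and 61.2 CPM with HyT36 and 6.86, 4.47 and 3.25 CPM with DMSO in clone 4, and rose by 3.59 ± 0.18 (SE, edgeR adjusted p = 3.43e-06). In clone 5 DDIT4 rose by 1.86 ± 0.20 (SE, edgeR adjusted p = 0.000437). SESN2, another inhibitor, rose by 0.79 ± 0.091 in clone 4 (SE, edgeR adjusted p = 0.000203). In clone 5 SESN2 was at 0.07 ± 0.092 (SE, edgeR adjusted p = 0.762). The 95% intervals of 74 of the 77 ribosomal protein genes in clone 4 and 75 in clone 5 lay within ±0.2 in the same libraries.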

How the data were processed

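Per the labels' protocols, RNA was poly(A)-selected and libraries were made with the NEBNext Ultra II RNA kit. The deposited table holds raw counts per gene for 12 bulk libraries, made by the authors. No label or file header names the aligner or strand setting behind these counts. The submitters' processing notes name GRCh38 and Cell Ranger 7. The 22344 guide rows and 4 summary rows entered neither library sizes nor tests (ambiguous reads were 6.75 to 7.15% and multimapping reads 2.23 to 2.82% of all counts). The 24 other samples of the series were not analysed here. Counts were filtered by edgeR's filterByExpr, scaled by TMM and tested with edgeR 4.0.16 (quasi-likelihood, robust, 4 group means, all 12 libraries, no block), with Benjamini-Hochberg adjustment over 14892 genes. The procedure was tested on simulated data. CPM values are TMM-scaled. DESeq2 1.42.0, limma-voom 3.58.1, other scalings, no filter, a replicate block, a KRT19 term, KRT19 subsets (chosen after seeing the data) and leaving out each library were tried. Chromosomes and start sequences came from RefSeq GRCh38.p14. Genes were named by rank: up to 6 rises and 6 falls among called members per comparison, 3 highest and 3 lowest by CPM, up to 3 each way per companion list, and exceptions are marked. The members and lists were chosen with earlier results of these data known. Some results of the lists read alongside are not reported here.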

Additional observations from a re-analysis of the deposited data

Results flagged for a closer look

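SESN2, an inhibitor of mTORC1, was the gene of the lists read alongside the ribosomal protein genes whose response to HyT36 differed between clones by the test of that difference. Its log2 response was 0.07 ± 0.092 in clone 5 and 0.79 ± 0.091 in clone 4 (SE), and the clone 5 response minus the clone 4 response was -0.72 ± 0.13 (SE, edgeR adjusted p = 0.0436). It measured 49.4, 49.6 and 46.6 CPM with HyT36 and 42.6, 50.9 and 45.4 CPM with DMSO in clone 5. In clone 4 it measured 67.2, 65.8 and 65.1 CPM with HyT36 and 34.3, 45.2 and 35.2 CPM with DMSO. DDIT4, of the same list, did not pass this test. It measured 18.4, 17.2 and 17.7 CPM with HyT36 and 5.83, 4.56 and 4.37 CPM with DMSO in clone 5. In clone 4 DDIT4 measured 55, 59.2 and 61.2 CPM with HyT36 and 6.86, 4.47 and 3.25 CPM with DMSO. None of the 77 ribosomal protein genes passed this test.

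In 2 further genes of these lists the HyT36 libraries lay all on one side of the DMSO libraries in clone 5 and all on the other in clone 4. The difference did not pass the test. Over all genes, the groups stood apart with HyT36 higher in 11.4% and lower in 13.8% in clone 5. In clone 4 these shares were 11.7% and 11.8%. NOP14, a biogenesis factor of the small subunit, had a log2 response of 0.12 in clone 5 and -0.09 in clone 4, a difference of 0.206 (edgeR adjusted p = 0.211). EPB41L4A-AS1, a snoRNA host transcript, had a log2 response of -0.15 in clone 5 and 0.08 in clone 4, a difference of -0.222 (edgeR adjusted p = 0.612).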

How the results depend on the processing

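The 4 X-linked genes, RPL7A, RPS23, RPS2, RPS27, RPL27A and RPLP0 kept their direction and their call between clones in all 23 other fits with DMSO and with HyT36. In the clone 4 response the count of called genes was 0 with scaling on autosomal genes outside the family, with only the groups compared and with the replicate block. It was 2 of 944 calls over all genes with no filter (1 of the 2 large-subunit) and 3 of 845 with limma-voom (all small-subunit). It was 5 of 856 with DESeq2 (2 large-subunit, 3 small-subunit) and 7 of 1037 with the KRT19 term (4 large-subunit, 3 small-subunit), against 1 of 830 in the main fit. In the KRT19-high libraries it was 17 (10 large-subunit, 7 small-subunit) and in the low ones 2 (both large-subunit, 0 small-subunit). Leaving out 1 library gave 0 to 4 in all, 0 to 3 for the large subunit and 0 to 1 for the small subunit. In the clone 5 response the single call, RPS10, was 0 with no filter, with the replicate block, with the KRT19 term and with DESeq2 (which gave RPS10 no adjusted p), and 0 to 1 without 1 library. With no filter 1 large-subunit gene was called in the difference of responses. Between clones with DMSO the count was 34 in the KRT19-high libraries. The small-subunit count there was 14, and 16 with the KRT19 term. RPS3 reversed to 0.0021 on the log2 scale (edgeR adjusted p = 0.97) in the KRT19-high libraries. The ratio differences were -0.0596% and 0.265% without the gene of each subunit with most reads. The cause of these shifts was not tested. Across all genes, the share of higher calls in the clone 5 response was 40.9% with TMM, 55.7% with upper-quartile scaling and 50.9% with DESeq2.

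Same-numbered libraries of different groups correlated at -0.476 to 0.187 in their deviations from the group means. With 3 libraries a group, these values cannot show whether same-numbered libraries shared a culture or day. With the replicate block 51 of the 77 genes were called between clones with DMSO and 39 with HyT36. Leaving out 1 library gave 43 to 57 and 36 to 49. Depth limits RPS10, with 21 to 64 reads, and 3 libraries a group limit the rest.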
